A study of Mus musculus with 6 samples.

Results

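The Notch pathway was followed through 9 genes in hematopoietic stem cells of mouse bone marrow. They encode the receptors Notch1 and Notch2, the gamma-secretase subunits Psen2 and Psenen, the regulators Numb and Dtx2, the DNA-binding factor Rbpj, and the targets Hes1 and Hey1. The members are the 16 probe sets whose only gene symbol in the array annotation is one of these 9, out of 45037 probe sets other than controls. The rule itself uses gene names, while the 9 genes were picked with earlier results of these data known. Testing was limited to probe sets that exceeded log2 4 on 3 or more arrays. This left 11 of the 16, with at least 1 for each of the 9 genes, and 19613 probe sets in all.

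Both groups were stem cells sorted as Sca-1+ and c-Kit+ without lineage markers, from male C57Bl/6 (CD45.1) mice aged 10 weeks, with no treatment or engineered allele in the labels. Lower-SP cells came from the lower part of the side population, a flow cytometry gate defined by the efflux of a DNA-binding dye, and Upper-SP cells from its upper part. Each fraction has 3 arrays, 1 per biological replicate, and each replicate came from pooled mice, so differences between single animals are not seen. The values are log2 expression from Affymetrix arrays, and a difference is Lower-SP minus Upper-SP unless a sentence says otherwise.

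Notch receptors sit in the cell membrane and are cut by an ADAM protease once a ligand of the Delta or Jagged family on a neighbouring cell binds them. Gamma-secretase then frees the intracellular part, which enters the nucleus, joins Rbpj and a Mastermind cofactor, and turns on genes such as Hes1 and Hey1. In blood formation the pathway is best known for committing progenitors to the T cell lineage and for the emergence of stem cells in the embryo.

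Across probe sets, the correlation between arrays was 0.981 to 0.996 for arrays of one fraction and 0.968 to 0.978 for arrays of different fractions. All 8 stem cell markers found on the array, among them Procr and Mecom, passed the level for testing. Of the 8, 2 were lower in Lower-SP: Abcg2, a transporter that exports the dye of the side population gate, by 1.04 (limma adjusted p = 0.00473), and Kit, the receptor used in the sort, by 0.92 (adjusted p = 0.0141). All 6 T cell markers found, Cd3e and Cd4 included, stayed under log2 4 on every array. The 9 neutrophil markers averaged 8.72, 8.25 and 5.14 on Lower-SP arrays 1, 2 and 3, against 4.73, 4.99 and 3.83 on the Upper-SP arrays, with Elane, a protease of neutrophil precursors, under 4 throughout. Of these 9 markers, 4 were higher in Lower-SP, as were 10.7% of all tested probe sets. Of the 4, Lcn2 and Chil3 exceeded log2 4 on Lower-SP arrays alone, so their calls are not independent of the filter. Lower-SP replicates 1 and 2 thus stand apart in the neutrophil transcripts. Values without these 2 arrays are given below where they change a call, turn a sign or move a called value by over 1.5 times. That alternative was chosen after seeing the data, and it rests on Lower-SP replicate 3 alone, assumed to vary like the other arrays.

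Some markers of plasma and stromal cells ran the other way, lower in Lower-SP. The 5 plasma cell markers averaged 4.48, 4.43 and 2.95 in Lower-SP, against 5.17, 5.32 and 4.93 in Upper-SP. Igha, an antibody heavy chain, read 9.40, 8.99 and 4.70 in Lower-SP, against 12.43, 12.60 and 11.31 in Upper-SP, and fell by 4.42 (limma adjusted p = 0.0239). Jchain lay lower without overlap (-1.82, adjusted p = 0.109), and the other 3 plasma cell markers stayed under 4. The 8 endothelial and stromal markers averaged 3.65, 3.42 and 3.73 in Lower-SP, against 3.95, 3.86 and 3.75 in Upper-SP. Of these, Postn, a matrix protein, was the 1 that passed, and it fell by 2.16 (limma adjusted p = 0.00803). Tek, the brightest of the 8, differed by 0.006 and Cxcl12 by -0.23, and neither passed. Cdh5, Pecam1, Lepr and Col1a1 were under 4 throughout. Igha, Jchain, Postn, Kit and Abcg2 move in the same direction as the lowered Notch pathway genes below. The part of these transcripts in those differences was not tested.

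Lower-SP cells had less signal for 4 of the 9 genes, Notch2, Psen2, Psenen and Hey1, and more for Dtx2 at 1 of its probe sets. Of the 11 tested probe sets, 4 were lower and 1 was higher in Lower-SP (limma, adjusted p under 0.05 over all tested probe sets). Across the array 17.5% of tested probe sets were lower, 10.7% higher and 28.1% changed in either direction, against 36.4%, 9.09% and 45.5% of the members. The groups did not overlap for 5 of the 11 (45.5%), close to 46.1% of all tested probe sets: 4 of the 11 lay wholly lower and 1 wholly higher in Lower-SP, against 27.9% and 18.2% of all. The median difference was -0.03 over the member probe sets and -0.14 over all tested probe sets. With 1 value per gene, from its brightest probe set, it was -0.51 over the 9 genes and -0.24 over all 9460, so where the members lie relative to all features depends on this choice. Only 1 of the 11 passed without Upper-SP replicate 1 (Psenen), where 8.49% of all tested probe sets did. Without Upper-SP replicate 2, 2 passed (13.4% of all), and without Lower-SP replicate 1, 3 passed (18.8% of all). In bulk samples, fewer cells that carry a transcript and less of it per cell cannot be told apart.

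**Figure D1:**
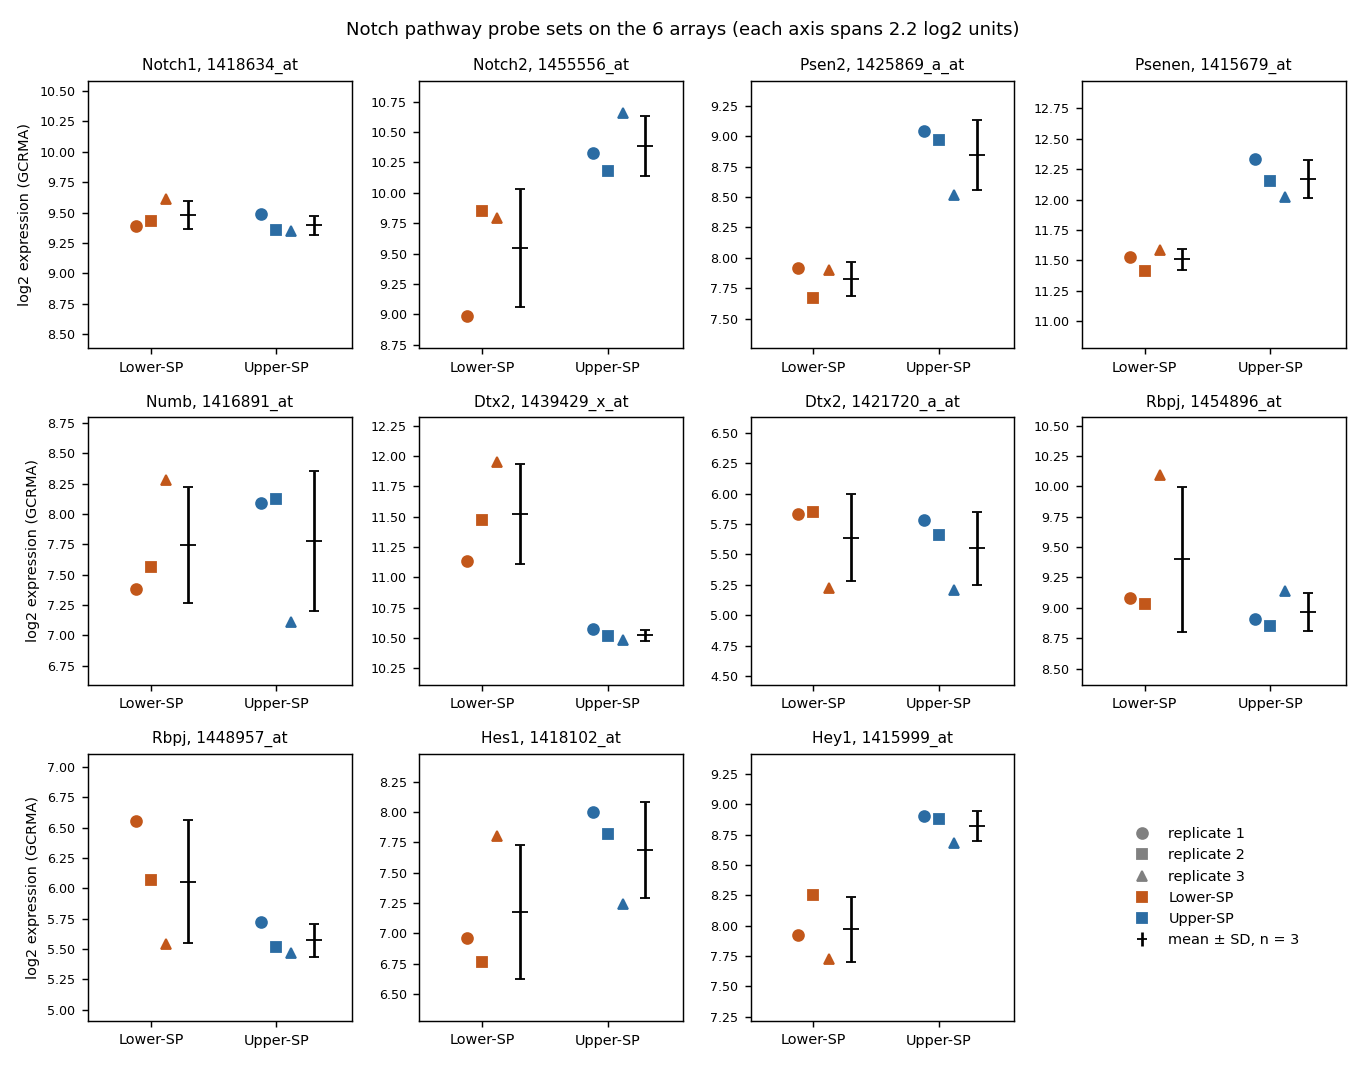
Each panel plots 1 tested probe set, with log2 expression on the vertical axis and the 3 Lower-SP and 3 Upper-SP arrays side by side, and the bar beside each group is the mean ± SD. Psen2, Psenen, Hey1 and Notch2 lie lower in all 3 Lower-SP arrays than in any Upper-SP array, and Dtx2 at 1439429_x_at lies higher.

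Of the receptors, Notch2 was lower in Lower-SP cells, while Notch1 showed no difference that passed. Notch2, a receptor of stem and progenitor cells, read 8.99, 9.85 and 9.79 on the Lower-SP arrays, against 10.33, 10.18 and 10.66 on the Upper-SP arrays (probe set 1455556_at). The groups did not overlap, and Lower-SP replicate 1 was the lowest array. Notch2 averaged 9.54 ± 0.48 in Lower-SP and 10.39 ± 0.24 in Upper-SP (SD, n = 3 each), and it fell by 0.84 (SE 0.26, 1.79-fold, limma adjusted p = 0.043). This call lay close to the threshold. It was lost with quantile normalization (difference -0.68, adjusted p = 0.109), centring (-0.76, adjusted p = 0.0701) and cyclic loess (-0.65, adjusted p = 0.11). With the difference unmoved at -0.84, it was lost with the replicate number as a block (adjusted p = 0.0532), with no trend in the variance (0.0648) and with no filter (0.139). It was also lost without Lower-SP replicate 1 (-0.56), Lower-SP replicate 2 (-0.996), or Upper-SP replicate 1 (-0.87), 2 (-0.95) or 3 (-0.71), with limma adjusted p between 0.0568 and 0.123, and without Lower-SP replicates 1 and 2 together (-0.59, adjusted p = 0.157). The second Notch2 probe set, 1451889_at, read at most 2.11 on any array and was not tested.

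Notch1, the receptor that drives T cell commitment, was bright and steady. At probe set 1418634_at it read 9.39, 9.44 and 9.61 on the Lower-SP arrays, against 9.49, 9.35 and 9.35 on the Upper-SP arrays. The groups overlapped, and the difference was 0.08 (SE 0.14, 95% interval -0.25 to 0.42, limma adjusted p = 0.693). That interval leaves out a change of the size measured for Notch2. The other Notch1 probe set, 1418633_at, stayed under 4 on every array. Within each array, Notch2 minus Notch1 was -0.41, 0.42 and 0.18 in Lower-SP, against 0.84, 0.82 and 1.30 in Upper-SP, with no overlap. The change in this within-array difference was -0.93 (two-sided exact permutation test, p = 0.10, the smallest that 3 against 3 arrays allow, and 0.15 after adjustment over the 3 such pairs tested).

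Both gamma-secretase genes were lower in Lower-SP cells. Psen2, a presenilin that can serve as the catalytic subunit, read 7.92, 7.67 and 7.90 in Lower-SP, against 9.04, 8.97 and 8.51 in Upper-SP (1425869_a_at). Every Lower-SP array lay below every Upper-SP array. It averaged 7.83 ± 0.14 in Lower-SP and 8.84 ± 0.29 in Upper-SP (SD, n = 3 each) and fell by 1.02 (SE 0.20, 2.02-fold, limma adjusted p = 0.0115). The call was lost without Upper-SP replicate 1 (difference -0.92, adjusted p = 0.0671) and, narrowly, without Upper-SP replicate 2 (-0.95, adjusted p = 0.0506). A second Psen2 probe set, 1431542_at, read at most 2.62 and was not tested.

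Psenen, the small subunit PEN-2 that completes the enzyme, read 11.53, 11.42 and 11.58 in Lower-SP, against 12.34, 12.16 and 12.02 in Upper-SP (1415679_at). The arrays within a fraction lay close together and the fractions did not overlap. It averaged 11.51 ± 0.09 in Lower-SP and 12.17 ± 0.16 in Upper-SP (SD, n = 3 each), and it fell by 0.66 (SE 0.12, 1.58-fold, limma adjusted p = 0.00788). Psenen kept this call with each single array left out, and lost it when Lower-SP replicates 1 and 2 were both omitted (-0.59, adjusted p = 0.0851), as did Psen2 (-0.94, adjusted p = 0.0877). The RefSeq annotation holds 1 pseudogene named after Psenen, and whether the probe set also reads it was not tested.

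Promoters of 7 of the 9 genes were found in the RefSeq table for GRCm38.p6, as windows of 250 bases before to 50 after an annotated start site. Hes1 and Hey1 were not matched. They were searched on both strands for TGGGAA, the core of the sequence that Rbpj binds. The core stood in 5 of 12 member windows and in windows of 4 of the 7 genes, against 25.6% of all 32851 windows and 28.3% of all genes. The Rbpj windows overlap and share a site, at -65 from the start site in the first and -205 in the second. The 5 windows are therefore not independent. Of the 4 matched genes with a called probe set, Psen2, Psenen and Dtx2 held it in 1 window each, and Notch2 did not. These 3 windows are shown because they belong to genes that differed between the fractions. Capitals mark the core or its reverse complement TTCCCA, and the sequences run 5′ to 3′ on the gene's strand. Psen2 lies at chr1:180245901-180246200 (minus strand), Psenen at chr7:30563155-30563454 (minus strand) and Dtx2 at chr5:135994550-135994849 (plus strand).
Psen2: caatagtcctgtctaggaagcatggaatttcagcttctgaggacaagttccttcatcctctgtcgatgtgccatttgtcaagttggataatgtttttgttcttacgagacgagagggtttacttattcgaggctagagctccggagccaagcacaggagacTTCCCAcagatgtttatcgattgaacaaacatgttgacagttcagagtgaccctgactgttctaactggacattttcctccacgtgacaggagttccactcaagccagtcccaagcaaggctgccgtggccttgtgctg
Psenen: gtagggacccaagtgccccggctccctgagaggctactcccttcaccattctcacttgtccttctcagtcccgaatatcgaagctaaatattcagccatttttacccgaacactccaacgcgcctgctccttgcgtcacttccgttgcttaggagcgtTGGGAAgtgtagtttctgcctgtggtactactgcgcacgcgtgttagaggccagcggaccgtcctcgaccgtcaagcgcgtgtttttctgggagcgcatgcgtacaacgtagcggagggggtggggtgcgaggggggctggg
Dtx2: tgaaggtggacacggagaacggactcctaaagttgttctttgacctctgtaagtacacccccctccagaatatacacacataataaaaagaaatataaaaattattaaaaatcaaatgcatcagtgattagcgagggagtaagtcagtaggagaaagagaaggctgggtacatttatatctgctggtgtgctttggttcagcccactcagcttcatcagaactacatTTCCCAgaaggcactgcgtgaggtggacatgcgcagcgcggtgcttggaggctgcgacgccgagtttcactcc
The first base of the core stands at position -89 from the start site in Psen2, -92 in Psenen and -23 in Dtx2. The other Psen2 and Psenen windows hold none. A match of these letters is a description and shows no binding, and the 300-base window says nothing of sites outside it.

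Of the regulators, Dtx2 was higher in Lower-SP cells at 1 probe set and Numb did not pass. Dtx2, a ubiquitin ligase of the Deltex family that acts on Notch, read 11.13, 11.47 and 11.95 in Lower-SP, against 10.57, 10.52 and 10.48 in Upper-SP at probe set 1439429_x_at. All 3 Lower-SP arrays were above the Upper-SP arrays. Dtx2 averaged 11.52 ± 0.41 in Lower-SP and 10.53 ± 0.04 in Upper-SP (SD, n = 3 each) and rose by 0.99 at this probe set (SE 0.20, 1.99-fold, limma adjusted p = 0.0116). The call was lost without Upper-SP replicate 1 (1.02, adjusted p = 0.0529).

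The other Dtx2 probe set did not show this. At 1421720_a_at, annotated to a RefSeq mRNA, Dtx2 read 5.84, 5.85 and 5.22 in Lower-SP, against 5.78, 5.66 and 5.21 in Upper-SP. The groups overlapped (difference 0.08, SE 0.28, 95% interval -0.56 to 0.73, limma adjusted p = 0.84), and the sign turned without Lower-SP replicate 1 (-0.02), Lower-SP replicate 2 (-0.02) or Upper-SP replicate 3 (-0.09). With Lower-SP replicate 3 as the only Lower-SP array it was -0.33. A name ending in _x_at marks a probe set with probes that may match other transcripts. Within each array the _x_at probe set minus the other gave 5.29, 5.63 and 6.73 in Lower-SP, against 4.79, 4.86 and 5.27 in Upper-SP. That is a change of 0.91 between the fractions (exact permutation p = 0.10, adjusted 0.15), with Lower-SP replicate 1 just above Upper-SP replicate 3.

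Numb, an endocytic adaptor that inhibits Notch and is shared unequally in some cell divisions, read 7.39, 7.56 and 8.28 in Lower-SP, against 8.09, 8.13 and 7.11 in Upper-SP (1416891_at). Replicate 3 stood apart in both fractions, in opposite directions, and the groups overlapped. Numb averaged 7.74 ± 0.47 in Lower-SP and 7.78 ± 0.58 in Upper-SP (difference -0.03, SE 0.35, 95% interval -0.85 to 0.79, limma adjusted p = 0.953). The sign of this difference was not fixed: it turned with cyclic loess (0.10), quantile normalization (0.06) and centring (0.06), and without Lower-SP replicate 1 (0.15) or 2 (0.06) or Upper-SP replicate 1 (0.12) or 2 (0.14), and with both Lower-SP replicates 1 and 2 omitted (0.51). A second Numb probe set, 1425368_a_at, read at most 2.07 and was not tested.

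**Figure D2:**
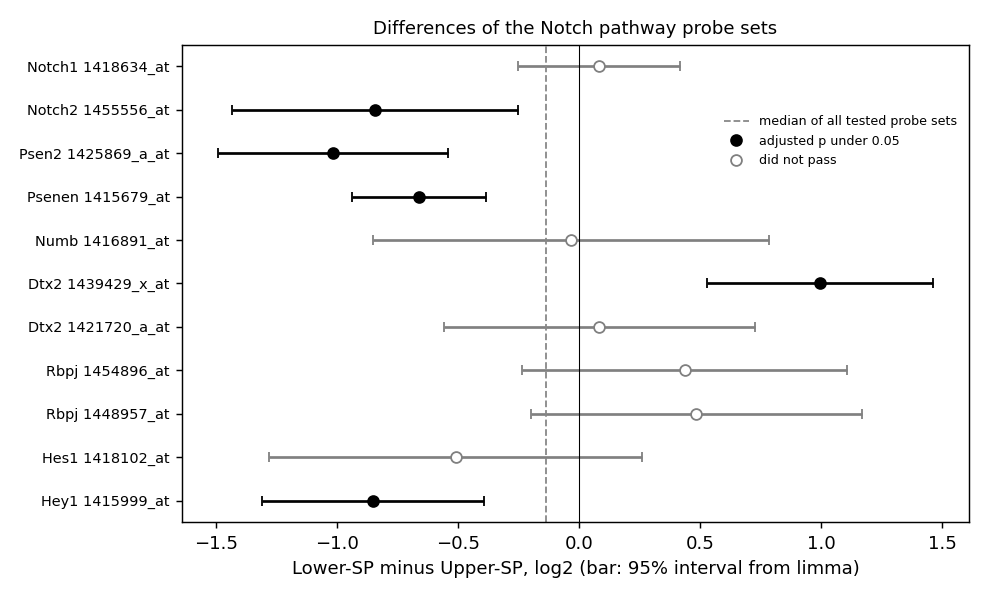
Points give the log2 difference, Lower-SP minus Upper-SP, of each of the 11 tested probe sets, with its 95% interval from limma. Filled points passed at an adjusted p under 0.05, and the dashed line is the median of all tested probe sets at -0.14. Notch2, Psen2, Psenen and Hey1 lie left of 0 and Dtx2 at 1439429_x_at right of it, while the intervals of the other 6 probe sets include 0.

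Rbpj, the DNA-binding protein through which all Notch receptors act on genes, did not pass at either tested probe set. At 1454896_at it read 9.08, 9.03 and 10.09 in Lower-SP, against 8.91, 8.85 and 9.14 in Upper-SP. Lower-SP replicate 3 was the highest array, and the other Lower-SP arrays lay within the Upper-SP range (difference 0.44, SE 0.29, limma adjusted p = 0.288). At 1448957_at Rbpj read 6.55, 6.07 and 5.54 in Lower-SP, against 5.73, 5.52 and 5.47 in Upper-SP. Here Lower-SP replicate 3 was instead the lowest of its fraction (difference 0.48, SE 0.29, limma adjusted p = 0.25).

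The Rbpj probe sets therefore disagree on Lower-SP replicate 3. When Lower-SP was represented by replicate 3 alone, the difference was 1.13 at 1454896_at (limma adjusted p = 0.0372) and -0.03 at 1448957_at (adjusted p = 0.956). Without Lower-SP replicate 3, 1454896_at differed by 0.09. A further Rbpj probe set, 1418114_at, read at most 2.91. The RefSeq annotation holds 3 pseudogenes named after Rbpj, and how far each probe set reads them was not tested.

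Of the targets, Hey1 was lower in Lower-SP cells and Hes1 did not pass. Hey1, a repressor of the Hairy family that Notch induces, read 7.93, 8.26 and 7.73 in Lower-SP, against 8.91, 8.88 and 8.68 in Upper-SP (1415999_at). All Lower-SP arrays were below the Upper-SP arrays. Hey1 averaged 7.97 ± 0.27 in Lower-SP and 8.82 ± 0.12 in Upper-SP (SD, n = 3 each), and it fell by 0.85 (SE 0.20, 1.80-fold, limma adjusted p = 0.0179). It passed with quantile normalization, centring and cyclic loess, and also with Lower-SP replicate 3 as the only Lower-SP array. The call was lost without Lower-SP replicate 1 (-0.83, adjusted p = 0.0519), Upper-SP replicate 1 (-0.81, adjusted p = 0.0877) or Upper-SP replicate 2 (-0.82, adjusted p = 0.0678), and with no filter (adjusted p = 0.0531).

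Hes1, the most widely used readout of Notch activity, read 6.97, 6.77 and 7.81 in Lower-SP, against 7.996, 7.82 and 7.24 in Upper-SP (1418102_at). Replicate 3 of each fraction lay inside the range of the other fraction, so the groups overlapped. Hes1 averaged 7.18 ± 0.55 in Lower-SP and 7.69 ± 0.39 in Upper-SP (difference -0.51, SE 0.33, 95% interval -1.28 to 0.26, limma adjusted p = 0.283). The 2 Lower-SP arrays with low Hes1 are those with the highest neutrophil transcripts. With both left out, the difference was 0.12 (adjusted p = 0.851), and without Lower-SP replicate 3 it was -0.82 (adjusted p = 0.0551). The part of those cells in the Hes1 values was not tested.

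Hey1 minus Hes1 within each array was 0.96, 1.49 and -0.08 in Lower-SP, against 0.91, 1.06 and 1.43 in Upper-SP. This within-array difference overlapped between the fractions (change -0.34, exact permutation p = 0.70), so the targets were not shown to differ from each other in their response.

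Replicate 3 of Lower-SP read above the mean of Lower-SP replicates 1 and 2 for 8 of the 11 member probe sets, against 52.9% of all tested probe sets. Upper-SP replicate 3 read above the mean of Upper-SP replicates 1 and 2 for 2 of the 11, against 45.7% of all. The widest such gaps in Lower-SP were 1.03 for Rbpj at 1454896_at, 0.94 for Hes1 and 0.81 for Numb. None of these genes passed the test between the fractions.

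**Figure D3:**
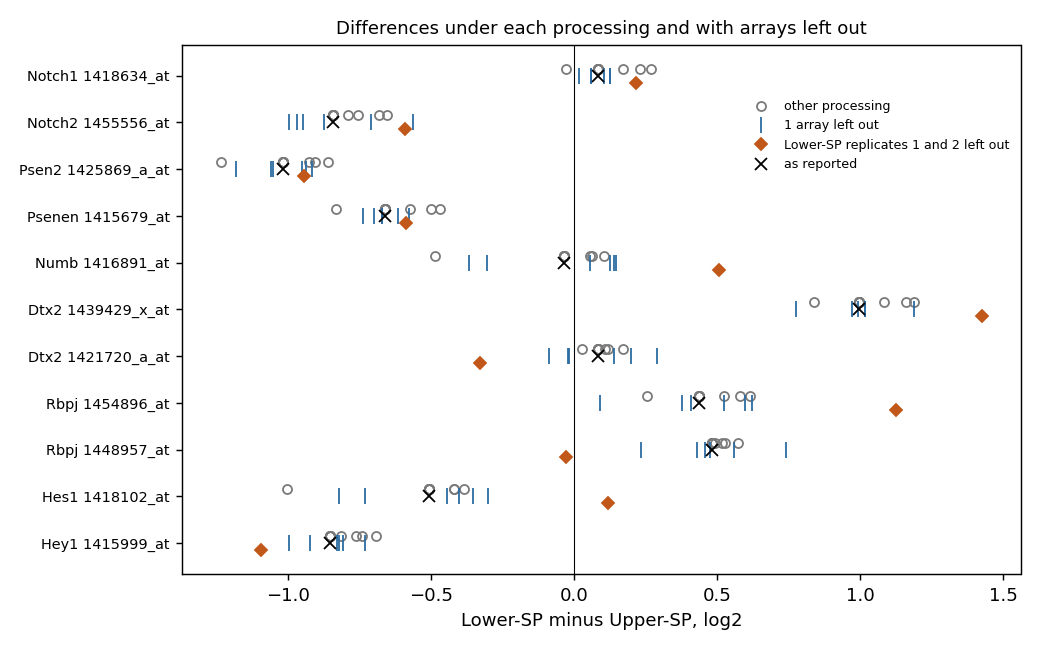
Each line is 1 tested probe set, with its log2 difference, Lower-SP minus Upper-SP, as reported (cross), under other processing (open circles), with 1 array left out (ticks) and with both Lower-SP replicates 1 and 2 omitted (diamonds). Psen2, Psenen, Hey1 and Notch2 stay below 0 and Dtx2 at 1439429_x_at above 0 in all of these, while Numb, Hes1, Notch1, Dtx2 at 1421720_a_at and Rbpj at 1448957_at cross 0 in at least 1.

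Among 9460 genes read through their brightest probe set, the patterns most like that of Notch1 over the 6 arrays were those of Osbpl3 (Pearson r = 0.983), Baz1b (0.980) and Hectd3 (0.976). For Hes1 they were Caskin2 (0.996), LTO1 (0.994) and Phykpl (0.994). These are descriptions of 6 arrays that share a scaling. LTO1, for example, read 8.26, 7.99 and 9.04 in Lower-SP, against 9.20, 9.16 and 8.54 in Upper-SP. Its replicate 3 shift is like that of Hes1, which follows from its choice by correlation with Hes1.

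The rest of the pathway was read from a list of 72 further genes, of which 66 were on the array under 1 symbol and 49 were tested. Of these 49 genes, 3 were higher and 10 lower in Lower-SP (26.5% in all), near the share for all 9460 genes, where 7.05% were higher, 20.7% lower and 27.7% changed. The lean to lower calls depends on the use of the brightest probe set. Over all 79 tested probe sets of the list, 12 were higher and 12 lower (15.2% each). Of all tested probe sets, 10.7% were higher and 17.5% lower. The 12 higher include Aph1b at 1435793_at and Itch at 1440582_at, which exceeded log2 4 on Lower-SP arrays alone. The list's median difference was -0.10, against -0.24 for all genes. With cyclic loess or quantile normalization the list had 6 higher and 7 lower. Without Upper-SP replicate 1, 5 of the 49 passed, where 8.49% of all tested probe sets did. Without Upper-SP replicate 2, 6 passed (13.4% of all probe sets), and without Lower-SP replicate 2, 8 passed (15.9% of all). Without Lower-SP replicates 1 and 2 together, 11 passed, 4 higher and 7 lower. Of the 13 calls as reported, that omission ended 6. They were those of Ctbp1 (-0.49, limma adjusted p = 0.0956), Kat2a (-0.57, adjusted p = 0.20), Pofut1 (-0.53, adjusted p = 0.136), Ccnd1 (-0.53, adjusted p = 0.204), Dtx3l (-0.79, adjusted p = 0.0901) and Neurl3 (0.995, adjusted p = 0.092).

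Few Notch ligands were detected. Of 8, only Jag1 and Jag2 were tested. Jag1 read 5.71, 6.37 and 6.96 in Lower-SP, against 5.84, 5.85 and 5.64 in Upper-SP, and its difference of 0.57 did not pass (limma adjusted p = 0.228). Jag2 differed by -0.40 at its brightest probe set (adjusted p = 0.17), and at a dimmer one, 1426430_at, it fell by 0.95 (adjusted p = 0.0386). Dll3, Dll4, Dlk1, Dlk2 and Dner stayed under 4 on every array, and Dll1 reached 4.89 at most. Of the receptors, Notch3 differed by -0.30 (adjusted p = 0.563) and Notch4 stayed under 4.

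The enzymes that add sugars to the Notch extracellular domain included the gene with the largest fall of the list. Poglut1, which attaches O-linked glucose, read 5.88, 5.15 and 4.62 in Lower-SP, against 7.51, 7.39 and 7.22 in Upper-SP. The groups were far apart, and Poglut1 fell by 2.16 (SE 0.33, 4.46-fold, limma adjusted p = 0.00515), a call kept with every alternative tried. Pofut1, which attaches O-linked fucose, fell by 0.71 (adjusted p = 0.0163), a call lost without Lower-SP replicate 1 or 2 (-0.67 each), or Upper-SP replicate 1 (-0.67) or 2 (-0.75). The fringe gene Mfng (-0.43, adjusted p = 0.0996) and its relative Rfng (-0.17) did not pass, and Lfng stayed under 4.

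None of the 6 tested protease genes passed at its brightest probe set. Of the other gamma-secretase subunits, Ncstn, the substrate-binding subunit, differed by 0.78 (limma adjusted p = 0.0615), and Aph1a by -0.53 (adjusted p = 0.0846). A dimmer Aph1a probe set, 1424980_s_at, rose by 1.58 (7.504, 7.40 and 7.28 in Lower-SP, against 5.99, 5.97 and 5.47 in Upper-SP). Another, 1424979_at, lay wholly lower in Lower-SP without passing (-0.64, limma adjusted p = 0.0658). Adam10, which makes the first ligand-dependent cut, differed by -0.004. Adam17 gave 0.36 where it was brightest and rose by 1.65 at a dimmer probe set, 1421859_at. Aph1b gave -0.22 where it was brightest. At 1435793_at it read 4.58, 4.37 and 5.66 in Lower-SP, against 3.04, 3.32 and 3.01 in Upper-SP. That probe set entered testing only through its Lower-SP arrays, so its rise of 1.74 is not independent of that filter. The values for these genes therefore depend on the probe set, and none of the tested probe sets of Ncstn, Aph1a or Aph1b was called lower.

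The nuclear cofactors, 17 of the 49 tested genes, held 7 of the 13 calls, 2 higher and 5 lower. That is 41.2% of the class, against 27.7% of all genes. Kdm5a, a histone demethylase that works with Rbpj in repression, read 9.73, 9.45 and 9.15 in Lower-SP, against 7.75, 7.35 and 7.84 in Upper-SP, and rose by 1.80 (SE 0.22, 3.47-fold, limma adjusted p = 0.00291). A second Kdm5a probe set rose by 1.99, and another did not pass (0.97, adjusted p = 0.0577). Tle2, a Groucho corepressor that Hairy-family repressors recruit, read 9.87, 9.68 and 10.04 in Lower-SP, against 11.33, 11.34 and 10.94 in Upper-SP. It fell by 1.34 (SE 0.16, 2.54-fold, adjusted p = 0.00288). At their brightest probe sets both genes kept their calls with every alternative tried. The related Tle3 rose by 0.80 (adjusted p = 0.0285), a call lost without Lower-SP replicate 1 (0.82), Upper-SP replicate 1 (0.78) or Upper-SP replicate 2 (0.72), and with no filter. A second Tle3 probe set, 1458512_at, did not pass (0.11, limma adjusted p = 0.711), and its groups overlapped. Tle4 did not pass (0.19). Tle1 did not pass where it was brightest (-0.07), but at 1422751_at it read 6.88, 7.50 and 6.55 in Lower-SP, against 5.53, 4.78 and 6.03 in Upper-SP, and rose by 1.53 (2.88-fold, adjusted p = 0.023) with no overlap. The acetyltransferase Crebbp did not pass at its brightest probe set (0.41, limma adjusted p = 0.0708). At 1435224_at it lay wholly lower in Lower-SP without passing (-0.59, adjusted p = 0.0535). It rose at 2 dimmer probe sets, by 1.01 at 1434633_at and by 1.80 at 1459804_at, where Upper-SP replicate 2 read 3.17.

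The acetyltransferase Kat2b fell by 0.94 at its brightest probe set (1434037_s_at, limma adjusted p = 0.0153). That call was lost without Lower-SP replicate 2 (-0.91), Upper-SP replicate 1 (-0.92) or Upper-SP replicate 2 (-0.90), and with no filter. Kat2b at 1457809_at rose by 2.50. Kat2b was the 1 gene of the list with probe sets called in opposite directions. The deacetylase Hdac2 fell by 0.93 (adjusted p = 0.0406), a call lost with cyclic loess (-0.76), quantile normalization (-0.81) and centring (-0.84). It was also lost without Lower-SP replicate 2 (-0.97) or Upper-SP replicate 1 (-0.88), 2 (-0.89) or 3 (-1.02), and with no trend or no filter. With Lower-SP replicates 1 and 2 both omitted, Hdac2 fell by 1.51. The dimmer Hdac2 probe sets did not pass: 1439704_at differed by -0.02 (limma adjusted p = 0.951) and 1449080_at by -0.81 (adjusted p = 0.083). The other lowered cofactors were the corepressor Ctbp1 (-0.68, adjusted p = 0.00846) and the acetyltransferase Kat2a (-0.61, adjusted p = 0.0344, lost in 11 of 18 alternatives). Maml1, a Mastermind cofactor, differed by 0.49 (adjusted p = 0.224).

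Ubiquitin and endocytic regulators had 1 gene higher and 2 lower of 10 tested (30% called, against 27.7% of all genes). Neurl3, a ubiquitin ligase of the Neuralized family, read 13.27, 13.23 and 13.46 in Lower-SP, against 12.45, 12.07 and 12.88 in Upper-SP. It rose by 0.86 (SE 0.19, limma adjusted p = 0.0161), a call lost without Upper-SP replicate 1 (0.85, adjusted p = 0.0708) and with no filter. The ubiquitin ligase Itch did not pass where it was brightest (0.08) or at 1415769_at (-0.32). At a dimmer probe set, 1440582_at, it rose by 1.57, with Upper-SP arrays at 3.73, 3.68 and 3.70. Those lie under log2 4, so this probe set entered testing only through its Lower-SP arrays. The lowered members were of the same Deltex family as Dtx2. Dtx3 fell by 0.71 (adjusted p = 0.00704), a call kept with every alternative tried, and Dtx3l fell by 0.69 (adjusted p = 0.0485), a call lost in 12 of 18 alternatives, cyclic loess (-0.55), quantile normalization and centring among them.

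Among 9 tested targets other than Hes1 and Hey1, only the cyclin Ccnd1 passed at its brightest probe set (11.1%, against 27.7% of all genes). It read 8.09, 8.09 and 8.61 in Lower-SP, against 9.31, 9.23 and 8.89 in Upper-SP, and fell by 0.88 at its brightest probe set (SE 0.21, limma adjusted p = 0.0209). The call was lost without Lower-SP replicate 1 or 2 (-0.79 each), Upper-SP replicate 1 (-0.80) or Upper-SP replicate 2 (-0.84), as well as with no filter or the replicate block (adjusted p = 0.0596). Other Ccnd1 probe sets differed by 0.30 and -0.11 without passing. Bcl2, a survival gene, was lower at a dimmer probe set, 1443837_x_at, which read 6.94, 7.52 and 7.09 in Lower-SP, against 8.29, 8.09 and 8.08 in Upper-SP (-0.97, adjusted p = 0.0162, no overlap). At 2 other dimmer Bcl2 probe sets the differences of 0.30 and -0.22 did not pass. Nrarp, a feedback inhibitor that Notch induces, did not pass (-0.32, adjusted p = 0.403), nor did Myc (-0.85, adjusted p = 0.168). The T cell targets Ptcra and Il2ra stayed under 4 on every array, as did the T cell markers.

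**Figure D4:**
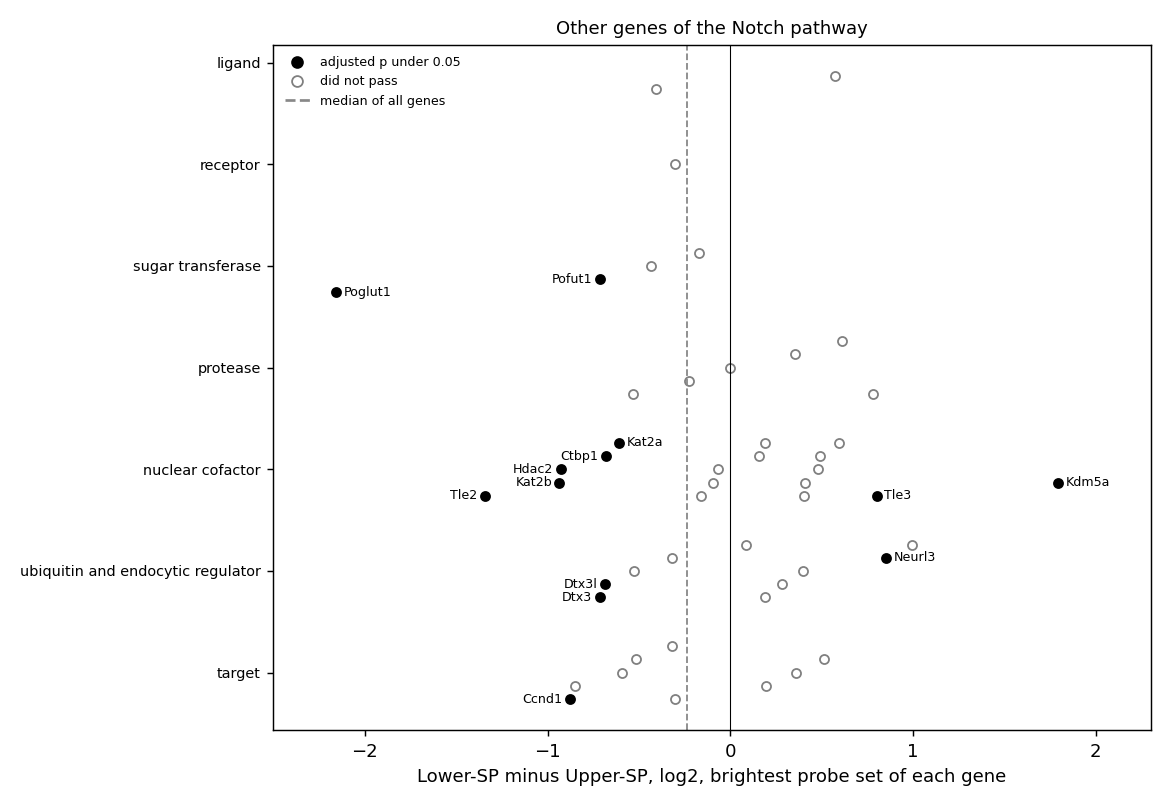
Points give the log2 difference, Lower-SP minus Upper-SP, of the brightest probe set of each of 49 further pathway genes, in rows by role (the height within a row has no meaning). Filled, named points passed at an adjusted p under 0.05: Kdm5a, Neurl3 and Tle3 lie right of 0, and 10 genes lie left of it, with Poglut1 the farthest at -2.16.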

How the data were processed

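Expression was measured on 6 Affymetrix mouse arrays, 3 of Lower-SP and 3 of Upper-SP cells. The deposited log2 values per probe set were made with GCOS 1.0 and GCRMA, per the submitters' processing notes, which give no parameters. GCRMA uses probe sequence to correct background, normalizes across arrays and summarizes each probe set, so differences are relative to that scaling. No genome build is needed for these values, and none was used with them. The series text gives 3 pools on separate days. Neither it nor the labels say that a replicate number marks a shared pool, so the main model has no block.

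Control probe sets (64) were dropped. Of the remaining 45037, the array annotation gives 1 gene symbol to 34945, several to 932 and none to 9160. The comparison used limma 3.58.1 in R 4.3.3, with lmFit and a trended eBayes (two-sided, 4 residual and 3.80 prior degrees of freedom), and Benjamini-Hochberg adjustment over 19613 tested probe sets and a threshold of 0.05. Unadjusted, 8182 had p under 0.05. The fit was tested on simulated data. Arrays have no sequencing depth, and their number limits the precision.

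Each gene of the wider list was read through its tested probe set with the highest mean. All members are named, and of the wider list the up to 5 largest rises and falls that passed. Other wider genes, other probe sets and the within-array tests were chosen after values were seen. The members and lists were chosen with earlier results of these data known. Promoters come from RefSeq (GRCm38.p6). Alternatives were filters, a floor, trends, scalings, array weights, a replicate block, arrays left out and, for the wider list, another choice of probe set.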

Additional observations from a re-analysis of the deposited data

How the results depend on the processing

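As reported, 5 of 11 member probe sets, 5520 of 19613 probe sets and 13 of 49 wider list genes passed. With no filter these counts were 3, 2931 and 6. With array weights 10728 probe sets and 24 wider genes passed. The weights ran from 0.268 for Lower-SP replicate 3 to 8.364 for Upper-SP replicate 1, so these counts lean on 1 array. Omitting Lower-SP replicates 1 and 2 together left 3 member probe sets and 2715 probe sets in all. With single arrays left out, the member count ran from 1 to 5, the count of all probe sets from 1666 to 6397 and the wider count from 5 to 15, the lowest each time without Upper-SP replicate 1. Of all calls 37.9% were higher in Lower-SP, against 51.5% with cyclic loess, 46.8% with quantile normalization and 45.7% with centring, which moved the median difference of all probe sets from -0.14 to -0.03, -0.07 and -0.05. With the replicate block 4 member probe sets passed (1 higher, 3 lower), 4180 probe sets and 10 wider genes. The calls it ended were those of Notch2, Kat2a (adjusted p = 0.0633), Ccnd1 and Dtx3l (adjusted p = 0.0661). Whether same-numbered arrays share a pool or a day is not stated. Their deviations from the group means correlated at -0.05, -0.03 and -0.02. Of the Lower-SP arrays, 0 of 3 correlated best with the Upper-SP array of its own number. These values alone cannot tell whether the numbers mark pairs.

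Some differences that had not passed changed sign. Notch1 gave -0.029 with array weights. Numb gave 0.063 with quantile normalization, 0.055 with centring, 0.10 with cyclic loess and 0.51 without Lower-SP replicates 1 and 2, and ran from -0.37 to 0.15 with single arrays left out. Dtx2 at 1421720_a_at ran from -0.086 (without Upper-SP replicate 3) to 0.29 with single arrays left out and gave -0.33 without Lower-SP replicates 1 and 2. That omission also gave -0.028 for Rbpj at 1448957_at (0.48 as reported) and 0.12 for Hes1 (-0.51 as reported). With array weights Hes1 passed (-1.003, limma adjusted p = 0.00364). That fit gave Upper-SP replicate 1 a weight of 8.364. Replicate 3 had 0.268 in Lower-SP and 0.365 in Upper-SP, and these are the arrays on which Hes1 overlapped. No called member or wider gene changed sign in any alternative that kept its probe set, and the counts out of 18 are of such alternatives. In a further alternative, each wider gene was read through its first probe set in name order. There 12 of 49 passed, 5 higher and 7 lower, and Ccnd1, then read at 1417419_at, gave 0.30 without passing. The cause of these changes was not tested.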
